A study of Homo sapiens with 42 samples.

Results

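The human multiple myeloma line RPMI-8226, a cancer of plasma cells grown in suspension culture, was compared after 24 h and at 0 h in cells that carried an inducible hairpin against BMI1 but received no doxycycline. The 6 arrays, 3 at 24 h and 3 at 0 h, were chosen by their titles from 42 arrays in 14 groups of 3. The medium held 1% fetal bovine serum. By title, both groups were the same stably infected BMI1-shRNA line without doxycycline, the drug that switches the hairpin on. The undosed control-shRNA line, which carries an inducible control hairpin, had 3 arrays at 24 h and 3 at 0 h and was set beside it, and later undosed arrays of both lines were taken at 32 and 48 h. The remaining groups received 100 ng/ml doxycycline. The labels do not say how many clones a line came from or what was done to the cells between 0 h and 24 h, and nothing says that the 3 samples of a group came from separate cultures. The p-values then measure only the spread between these samples, which may be technical.

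The 3 arrays at 0 h carry labels that disagree with each other. Their titles name the BMI1-shRNA line without doxycycline, their characteristics name the BMI1-shRNA line with doxycycline, and their source names name the control-shRNA line. They were grouped by title. Of 577 genes that separated the undosed lines at 24, 32 and 48 h, the 0 h arrays lay on the side of the BMI1-shRNA line for 567, 563 and 565 (98.3%, 97.6% and 97.9%). Of 12 genes that separated undosed from dosed arrays of that line at 24, 32 and 48 h, all 12 lay on the undosed side in each of the 3 arrays. Such genes cannot show whether doxycycline had only just been added at 0 h, so the doxycycline label stays unsettled. BMI1, the Polycomb protein that the hairpin targets, read 963, 758 and 1059 at 24 h, against 1069, 1009 and 1018 at 0 h. Those signals overlapped, and the difference did not pass the test (log2 fold change -0.17 ± 0.10, limma adjusted p = 0.457). The BMI1 probe set is also annotated to the readthrough transcript COMMD3-BMI1.

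Each array gave a MAS5 signal, a linear measure of brightness per probe set, for 14705 genes that could be tested. Every array had the same trimmed mean signal of 150.02, so the arrays were already scaled to a common target. The median signal over all probe sets was 17.5 to 19.5 at 24 h and 16.0 to 18.7 at 0 h. The ratio of the 3′ to the 5′ GAPDH probe set, a measure of RNA integrity, was 0.906 to 0.958 at 24 h and 0.915 to 0.945 at 0 h. Plasma cell genes were bright in both groups: the summed signal of the 19 tested genes of that list was 49223 to 56342 at 24 h and 45852 to 50820 at 0 h. Markers of T cells, monocytes, erythroid cells and fibroblasts had median member signals of 10.8 to 29.3 at 24 h and 15.0 to 24.3 at 0 h, and none of the 15 tested passed. The summed T cell markers, 5 of 8 tested, were 129 to 183 at 24 h and 92.8 to 112 at 0 h. The B cell markers, 7 of 8 tested, summed to 674 to 694 at 24 h and 573 to 723 at 0 h, of which the kinase gene BLK gave a mean of 483 at 24 h and 432 at 0 h, and none passed. Of 6 epithelial markers, EPCAM and KRT18 were bright in both groups (mean signals 3376 and 2330 at 24 h, 3648 and 2438 at 0 h), and none of the 6 passed. Over all genes tested 1.73% passed, so the lack of a call among so few markers says little about them. Fewer cells of a type and less RNA per cell cannot be told apart in these bulk samples.

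Cells make cholesterol from acetyl-CoA through the mevalonate pathway, and the genes of the pathway are transcribed together by SREBP2 when sterols in the endoplasmic reticulum run low. ID proteins are helix-loop-helix proteins without a DNA-binding part that hold E-protein transcription factors away from DNA. They are early targets of BMP and SMAD signalling and oppose lymphocyte differentiation. Blimp-1, the product of PRDM1, maintains the plasma cell programme from which myeloma arises.

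After 24 h, 12 of 19 tested genes of cholesterol synthesis, uptake and their regulation were higher, by 0.31 to 0.74 on the log2 scale. ID1, ID3 and PRDM1 were lower, at -1.32, -1.15 and -0.53. A total of 254 of the 14705 genes passed a limma adjusted p of 0.05 (1.73%), of which 92 rose (0.626%) and 162 fell (1.1%). The changes were small: the median size over the 254 genes was 0.34 on the log2 scale, 37 changed at least 1.5-fold and 11 at least 2-fold. The arrays of the 2 times did not overlap for 250 of the 254, against 3207 of all genes tested (21.8%). The genes that passed were bright, with a median signal of 660.7, against 133.7 over all genes tested. At an unadjusted p of 0.05, 2141 genes passed. The count depended on single arrays: it was 102, 113 and 122 without 24 h replicates 1, 2 and 3, and 78, 164 and 95 without 0 h replicates 1, 2 and 3. It was 153 where the probe sets of a gene were averaged.

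**Figure D1:**
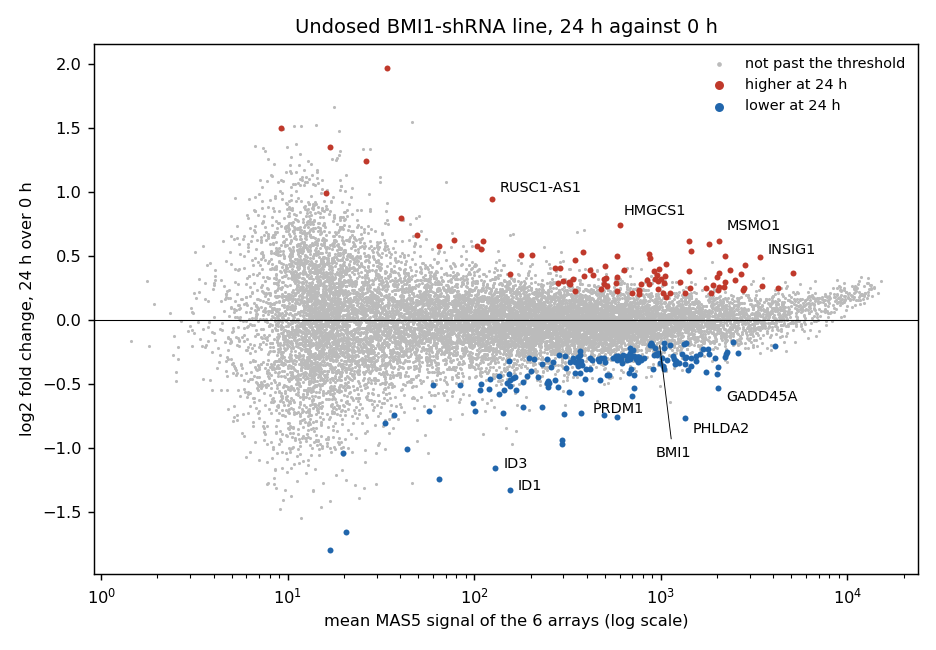
Log2 fold change of 24 h over 0 h (vertical axis) against the mean MAS5 signal of the 6 arrays (horizontal axis, log scale) for 14705 genes of the undosed BMI1-shRNA line, with 92 genes that rose in red, 162 that fell in blue and the rest in grey. ID1 and ID3 are the lowest coloured points with a signal above 100, at -1.32 and -1.15, and HMGCS1 is at 0.74.

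The cholesterol synthesis and uptake list held 25 genes, of which 19 were tested and 6 were not analysed here. Of the 19, 12 rose and none fell, against 0.626% of all genes that rose, and 17 lay above 0, against 48.1% of all genes tested. Their median log2 fold change was 0.37, against -0.01 over all genes tested. HMGCS1, which makes HMG-CoA at the entry of the mevalonate pathway, had signals of 732, 753 and 786 at 24 h, against 424, 446 and 483 at 0 h. The arrays of the 2 times did not overlap, and HMGCS1 rose (log2 fold change 0.74 ± 0.12 (SE), n = 3 each, limma adjusted p = 0.000346). Its second probe set gave 0.61.

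Further down the pathway, IDI1, the isomerase that makes dimethylallyl diphosphate, had signals of 1764, 1681 and 1652 at 24 h, against 1257, 1112 and 968 at 0 h (log2 fold change 0.62 ± 0.10, limma adjusted p = 0.000361). LSS, which closes squalene epoxide into lanosterol, read 2262, 2135 and 2168 at 24 h, against 1454, 1431 and 1446 at 0 h (0.60 ± 0.07, limma adjusted p = 3.07e-06). MSMO1, which takes part in removing methyl groups from lanosterol, read 2551, 2424 and 2444 at 24 h, against 1646, 1663 and 1514 at 0 h (0.62 ± 0.06, limma adjusted p = 6.44e-08). For all 3, each array at 24 h was brighter than each array at 0 h. The calls of HMGCS1, IDI1, LSS, MSMO1 and INSIG1 held in every alternative and without any single array.

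SQLE, the squalene epoxidase, rose by 0.37 on the log2 scale, and DHCR7, the enzyme of a last step to cholesterol, by 0.50. ACAT2, which condenses acetyl-CoA, rose by 0.34, MVD, a decarboxylase of the mevalonate pathway, by 0.63, and the sterol isomerase EBP and the sterol reductase TM7SF2 by 0.31 and 0.51. Dimmer EBP probe sets gave 0.30, -0.40 and 0.45 in a fit of all probe sets and did not pass. MVD was dim, with 90.1, 113 and 83.4 at 24 h, against 56.1, 57 and 65.4 at 0 h, and its limma adjusted p of 0.0185 became up to 0.134 in the 3 of 6 leave-outs that ended its call. The regulators moved as well. INSIG1, the membrane protein that holds the SREBP complex back when sterols are plentiful, read 3907, 4080.0 and 3965 at 24 h, against 2866, 2674 and 2949.9 at 0 h (0.49 ± 0.07, limma adjusted p = 9.46e-06), and its 3 probe sets gave 0.48 to 0.51. SREBF2, which encodes SREBP2, read 342, 294 and 290.0 at 24 h, against 219.9, 266 and 212 at 0 h (0.40 ± 0.10, limma adjusted p = 0.0348), and these arrays did not overlap. In a fit of all probe sets SREBF2 did not pass (limma adjusted p = 0.0521), and its dimmer probe sets gave 0.35 and 0.29 without passing.

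Of the 7 tested genes that did not pass, FDPS (0.33 ± 0.09, limma adjusted p = 0.0516) and HSD17B7 (0.28 ± 0.08, limma adjusted p = 0.0645) lay closest to the threshold. NSDHL and SC5D were at 0.24 and 0.15, and PMVK, STARD4 and MVK were at 0.02, -0.01 and -0.02. Dimmer MVK probe sets gave 0.476, 0.483 and 1.47 in a fit of all probe sets and did not pass. The number of cholesterol genes that rose was 8 to 11 when single arrays were left out.

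**Figure D2:**
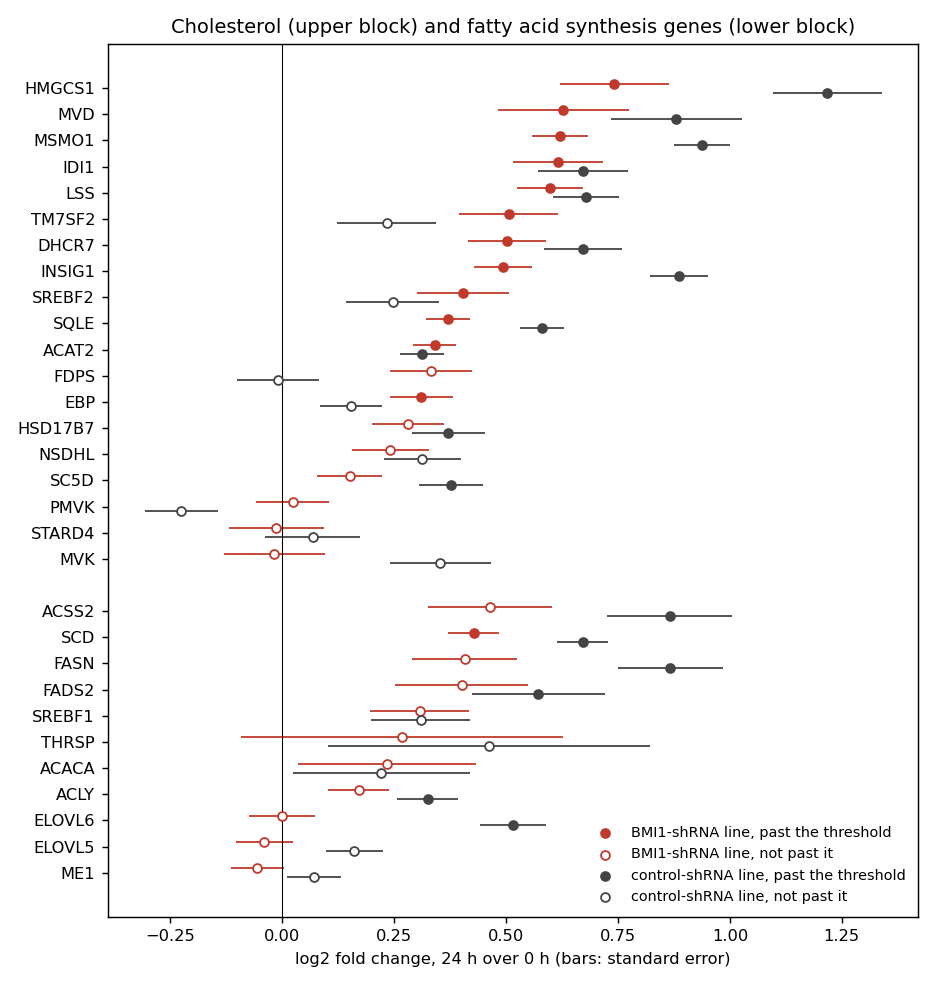
Log2 fold change of 24 h over 0 h with its standard error (horizontal axis) for the 19 tested cholesterol genes and 11 tested fatty acid synthesis genes, in the BMI1-shRNA line (red) and the control-shRNA line (dark grey). Filled points passed a limma adjusted p of 0.05: 12 cholesterol genes in the BMI1-shRNA line and 11 in the control-shRNA line, and 1 and 6 fatty acid genes. Each gene is shown by its brightest kept probe set only.

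The promoters of these genes are shown because they rose together. RefSeq sequences of the 250 bases before the gene start (build GRCh38.p14) were found for 10 of the 12 genes that rose. Capitals mark CCAAT boxes (CCAAT on either strand) in the 4 sequences, which belong to 3 enzymes described above and to SREBF2. In SREBF2, capitals also mark the sterol regulatory element TCACNCCAC, searched on both strands, which does not overlap the CCAAT box. The regions are chr5:43313413-43313662 (minus strand), chr21:46228775-46229024 (minus strand), chr4:165327419-165327668 (plus strand) and chr22:41832855-41833104 (plus strand).
HMGCS1: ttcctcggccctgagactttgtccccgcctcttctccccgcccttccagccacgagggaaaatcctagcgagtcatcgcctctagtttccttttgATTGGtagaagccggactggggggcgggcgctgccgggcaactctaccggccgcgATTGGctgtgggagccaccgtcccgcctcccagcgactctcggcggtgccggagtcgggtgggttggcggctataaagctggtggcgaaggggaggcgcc
LSS: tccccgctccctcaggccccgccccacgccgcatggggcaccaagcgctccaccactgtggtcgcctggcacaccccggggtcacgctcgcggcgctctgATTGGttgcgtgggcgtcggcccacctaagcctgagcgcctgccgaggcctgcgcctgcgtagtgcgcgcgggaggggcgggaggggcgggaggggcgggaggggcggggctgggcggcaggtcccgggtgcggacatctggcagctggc
MSMO1: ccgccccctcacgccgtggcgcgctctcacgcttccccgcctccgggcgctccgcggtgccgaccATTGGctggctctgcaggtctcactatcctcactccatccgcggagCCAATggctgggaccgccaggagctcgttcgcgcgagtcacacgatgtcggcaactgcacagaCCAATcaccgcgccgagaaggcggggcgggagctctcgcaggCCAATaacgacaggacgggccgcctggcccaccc
SREBF2: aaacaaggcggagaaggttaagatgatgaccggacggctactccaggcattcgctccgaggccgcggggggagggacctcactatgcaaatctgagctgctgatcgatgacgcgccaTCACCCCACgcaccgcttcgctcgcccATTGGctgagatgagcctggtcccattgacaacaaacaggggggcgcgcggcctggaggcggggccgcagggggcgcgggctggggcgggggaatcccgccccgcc

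A CCAAT box was present in 9 of the 10 promoters (90.0%), against 34.8% of 11733 promoters of genes tested. The box was as common among the cholesterol genes that did not pass, in 6 of 7 (85.7%), so it did not separate them from those that rose. It occurred in 49.4% of 77 promoters of all genes that rose and in 32.3% of 130 promoters of genes that fell. The sterol element was in 1 of the 10 promoters (SREBF2), against 0.844% of the promoters of genes tested. Letters matched in a window are a description, not binding sites.

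Of 13 fatty acid synthesis genes 11 were tested, and 8 lay above 0 (48.1% of all genes did). By the brightest probe set of each gene 1 rose (0.626% of all genes did): SCD, the desaturase that makes oleate. ACLY did not pass by its brightest probe set (0.17 ± 0.07, limma adjusted p = 0.214). Dimmer probe sets of ACLY rose by 0.39 and 0.59 in a fit of all probe sets (limma adjusted p = 0.0131 and 2.8e-06). SCD read 3227, 3238 and 3219.8 at 24 h, against 2414, 2299 and 2486 at 0 h (0.43 ± 0.06, limma adjusted p = 9.46e-06), and the arrays did not overlap. FASN, the fatty acid synthase, had 772, 772 and 856 at 24 h, against 613, 561 and 631 at 0 h without overlap but did not pass (0.41 ± 0.12, limma adjusted p = 0.0643). ACSS2, which makes acetyl-CoA from acetate, overlapped through 1 array at 0 h (278, 308 and 255 at 24 h, against 176, 169 and 272 at 0 h; 0.46 ± 0.14, limma adjusted p = 0.0768). ELOVL6, which elongates fatty acids, gave 297, 287 and 311 at 24 h, against 286, 289 and 321 at 0 h and a log2 fold change of 0.00. The 8 tested genes of sterol efflux, targets of the LXR receptors, had a median of 0.03 and none passed.

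The deepest falls among genes with a signal of at least 100 were those of ID1 and ID3. ID1, on chromosome 20, had signals of 95.2, 93.6 and 71.5 at 24 h, against 208, 226 and 237 at 0 h. ID3, on chromosome 1, had signals of 73.6, 88.9 and 73.1 at 24 h, against 189, 165 and 188 at 0 h. The 24 h arrays of both genes read less than any 0 h array by a wide gap, with log2 fold changes of -1.32 ± 0.16, limma adjusted p = 2.11e-06 for ID1 and -1.15 ± 0.15, limma adjusted p = 6.38e-06 for ID3. ID2 read 2392, 2334 and 2339 at 24 h, against 2878, 2714 and 2839.6 at 0 h and also fell (-0.25 ± 0.06, limma adjusted p = 0.0299). A second ID2 probe set gave -0.58. The ID2 call was lost in 5 of the 6 leave-outs, with a limma adjusted p of up to 0.121 (without 0 h replicate 1), while the ID1 and ID3 calls held without each array. Of the 14 tested genes of SMAD and ID feedback, ID1, ID2 and ID3 were the 3 that fell, against 1.1% of all genes, and none rose.

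The later undosed arrays were set against the same 0 h arrays, so the 3 comparisons share them. The log2 differences from 0 h for ID1 were -1.32 at 24 h, -1.10 at 32 h and -1.84 at 48 h. Those for ID3 were -1.15 at 24 h, -0.97 at 32 h and -1.26 at 48 h. PRDM1 gave -0.53 at 24 h, -0.35 at 32 h and -0.48 at 48 h, and HMGCS1 gave 0.74 at 24 h, 0.74 at 32 h and 0.42 at 48 h.

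**Figure D3:**
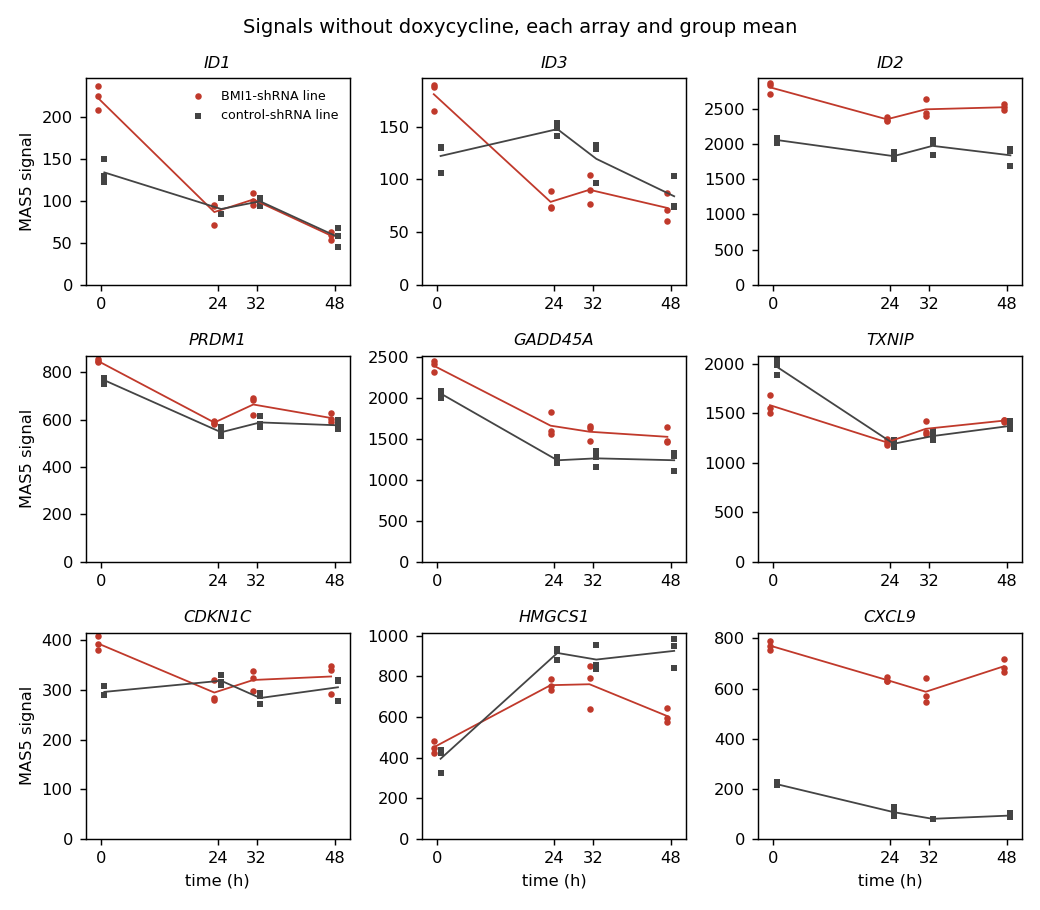
MAS5 signals (vertical axes, starting at 0) of 9 genes at 0, 24, 32 and 48 h without doxycycline in the BMI1-shRNA line (red circles) and the control-shRNA line (dark squares), 3 arrays a time, with lines through the group means. At 24 h, ID1 and ID3 averaged 86.8 and 78.5 in the BMI1-shRNA line, against 224 and 181 at 0 h, whereas CXCL9 is far brighter in the BMI1-shRNA line at each time.

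PRDM1, which encodes the plasma cell repressor Blimp-1 on chromosome 6, had the smallest p-value of all genes. Its signals were 583, 586 and 594 at 24 h, against 843, 848 and 854 at 0 h, with almost no spread within a time (-0.53 ± 0.05, limma adjusted p = 1.5e-08). The other 2 probe sets of PRDM1, both dimmer, gave -0.29 and -0.11 and did not pass, and the mean of the 3 lost the call (limma adjusted p = 0.420). PRDM1 was the only gene of 19 tested on the plasma cell list to pass, where 1.73% of all genes passed. SDC1, the surface marker CD138, had a log2 fold change of 0.05 ± 0.12 and CD38 of 0.15 ± 0.09. XBP1, which drives secretory expansion, was at -0.07 ± 0.08 and IRF4, on which myeloma cells depend, at 0.04 ± 0.06. IRF4 read 1273, 1346 and 1431 at 24 h, against 1252, 1325 and 1349.8 at 0 h, and the arrays overlapped.

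RPMI-8226 is known for overexpression of MAF. Among 10 tested genes of the MAF programme 1 passed and fell, against 1.1% of all genes. It was CXCR4, the receptor for the bone marrow chemokine CXCL12, with 1932, 1639.5 and 1701 at 24 h, against 2230.4, 2083 and 2498 at 0 h (-0.37 ± 0.08, limma adjusted p = 0.0111). The call was lost without 24 h replicate 2 or 3 or 0 h replicate 3 (limma adjusted p up to 0.112), and 2 other CXCR4 probe sets gave -0.23 and 0.00. MAF itself was at 0.09 ± 0.12, ITGB7 at 0.21 ± 0.08 and CCND2 at 0.08 ± 0.08. MYC, the growth-driving transcription factor, read 7929.6, 8559 and 7572 at 24 h, against 7195, 7933 and 7975 at 0 h and did not pass (0.06 ± 0.09, limma adjusted p = 0.844).

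Of 7 tested inhibitors of cyclin-dependent kinases 3 fell, against 1.1% of all genes, and none rose. CDKN1C, which encodes p57, read 284, 281 and 319 at 24 h, against 380.1, 394 and 409 at 0 h (-0.41 ± 0.07, limma adjusted p = 0.000846). CDKN1B, which encodes p27, read 1601, 1499.9 and 1567 at 24 h, against 1815, 1781 and 1864 at 0 h (-0.23 ± 0.05, limma adjusted p = 0.0227), and CDKN1A, which encodes p21, read 61, 72.9 and 93.9 at 24 h, against 127, 129.5 and 106 at 0 h (-0.65 ± 0.17, limma adjusted p = 0.0448). The arrays of the 2 times did not overlap for any of the 3. The CDKN1C call held without each single array and was at a limma adjusted p of 0.0504 with the mean of its probe sets, whereas those of CDKN1B and CDKN1A were lost in 4 and 5 of the 6 leave-outs, with limma adjusted p of up to 0.120 and 0.217 (without 24 h replicates 2 and 1). CDKN2A, a known target of BMI1, did not pass (0.20 ± 0.07, limma adjusted p = 0.123).

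Among 40 tested genes of G2 and mitosis 4 rose, against 0.626% of all genes, and none fell. Of the 40, 34 lay above 0, against 48.1% of all genes, and the median was 0.12. ASPM, a spindle pole protein, read 1569, 1648 and 1572 at 24 h, against 1267, 1223 and 1178 at 0 h (0.38 ± 0.06, limma adjusted p = 0.000338). CENPF, a kinetochore protein, AURKA, a spindle kinase, and PLK1, another mitotic kinase, rose by 0.34, 0.28 and 0.32 on the log2 scale. CENPF lost its call without 0 h replicate 3 (limma adjusted p = 0.0670), and AURKA and PLK1 in 4 of 6 leave-outs each. With the mean of each gene's probe sets, CENPF and AURKA also lost their calls (limma adjusted p = 0.274 and 0.516). A second AURKA probe set, nearly as bright, gave 0.09 and did not pass. Of 42 tested genes of the G1/S and DNA replication list, 1 rose and 1 fell, against 0.626% and 1.1% of all genes. TK1, a thymidine kinase, rose (0.25 ± 0.06, limma adjusted p = 0.0138) and CCNE2, a cyclin of S phase entry, fell (-0.47 ± 0.10, limma adjusted p = 0.00532). The TK1 call was lost in 4 of 6 leave-outs (limma adjusted p up to 0.0720). That list had a median of 0.00.

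Among stress and signalling genes, GADD45A, a growth arrest gene induced by DNA damage and starvation, read 1826, 1599 and 1554 at 24 h, against 2314, 2448 and 2412 at 0 h and fell (-0.53 ± 0.07, limma adjusted p = 1.66e-05). TXNIP, which restrains glucose uptake and binds thioredoxin, read 1239, 1184 and 1199.6 at 24 h, against 1559.5, 1686 and 1505 at 0 h (-0.39 ± 0.05, limma adjusted p = 9.46e-06). Both held their calls whichever array was left out, and their arrays did not overlap between the times. Of 5 tested targets of the glucose sensor MondoA, TXNIP was the only one that passed, where 1.73% of all genes passed. GADD45A and TXNIP were also the 2 of 18 tested genes of FOXO and growth factor withdrawal that fell, against 1.1% of all genes. SLC2A1, the glucose transporter GLUT1, and the peptide hormone ADM fell by 0.48 and 0.46. They were the 2 that fell among 35 tested glycolysis and hypoxia genes, against 1.1% of all genes. The SLC2A1 call was lost in every leave-out, with a limma adjusted p of up to 0.170.

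Of 23 tested genes of NRF2 and oxidative stress, 2 fell and 1 rose, against 1.1% and 0.626% of all genes. GCLM, a subunit of glutamate-cysteine ligase, fell (-0.42 ± 0.07, limma adjusted p = 0.000691), as did the autophagy receptor SQSTM1 (-0.30 ± 0.07, limma adjusted p = 0.0299). The SQSTM1 arrays of the 2 times overlapped, and its call was lost in 4 of 6 leave-outs (limma adjusted p up to 0.192, without 24 h replicate 1). PGD, an enzyme of the pentose phosphate pathway, rose (0.27 ± 0.07, limma adjusted p = 0.0352), but its call was lost whichever of the 6 arrays was left out. DNAJB1, an HSP40 co-chaperone, read 1166, 1190.0 and 1325 at 24 h, against 927, 889.8 and 892 at 0 h and rose (0.44 ± 0.07, limma adjusted p = 0.000443). It was the only one of 14 tested heat shock genes to pass, where 1.73% of all genes passed. SFN, which encodes 14-3-3 sigma, read 1762, 1608 and 1811 at 24 h, against 1182, 1258 and 1111 at 0 h and rose (0.54 ± 0.08, limma adjusted p = 0.000125).

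Of 27 tested immediate early genes, 3 fell, against 1.1% of all genes, and none rose. Of the 27, 4 lay above 0, against 48.1% of all genes, and the median was -0.21. The 3 were DUSP4, a phosphatase of MAP kinases, KLF10, a transcription factor induced by TGF-beta, and IER5, at -0.45 ± 0.11, -0.34 ± 0.08 and -0.18 ± 0.05. Leaving out single arrays ended the calls of DUSP4 in 2 of 6 cases, of KLF10 in 5 and of IER5 in all 6, with limma adjusted p of up to 0.218, 0.105 and 0.149. The chemokines CCL5 (-0.71 ± 0.19, limma adjusted p = 0.0439) and CXCL10 (-0.35 ± 0.08, limma adjusted p = 0.0191) were the 2 that fell among 20 tested NF-kB targets, against 1.1% of all genes. They lost their calls in 5 and 3 of the 6 leave-outs, with limma adjusted p of up to 0.215 and 0.131.

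Several lists held 1 gene that passed, where 1.73% of all genes passed (1.1% fell and 0.626% rose). These single calls are given as genes, not as a result about their lists. CDKN1A, described above, was the 1 gene to pass among 20 tested genes of the p53 target list. That list left out GADD45A and SFN, which passed in opposite directions. SQSTM1 was the 1 gene to pass among 28 genes of autophagy and lysosome. Both CDKN1A and SQSTM1 fell. The others were AARS1, an alanyl-tRNA synthetase, which rose by 0.29 among 27 genes of the ATF4 response, and EZH2, the catalytic subunit of PRC2, which fell by 0.18 among 12 PRC2 genes. PSMC6 fell among 27 proteasome genes (-0.23 ± 0.06), CRELD2 among 23 genes of the unfolded protein response (-0.28 ± 0.08), IL10RA among 18 cytokine receptor genes (-0.43 ± 0.11) and PER2 among 15 clock genes (-0.30 ± 0.08). AARS1, EZH2, PSMC6, CRELD2, IL10RA and PER2 all lost their calls without at least 1 array: AARS1 without 24 h replicate 1 (limma adjusted p = 0.0936), PSMC6 in 4 leave-outs, IL10RA and PER2 in 5, and EZH2 and CRELD2 in 6. SFXN1, a mitochondrial serine transporter, also fell (-0.28 ± 0.08, limma adjusted p = 0.0467) and lost its call in all 6. No gene passed among 20 PRC1 subunits, 12 pro-apoptotic and 6 anti-apoptotic BCL2 genes, 30 interferon-stimulated genes, 15 amino acid transporters, 11 metallothionein and zinc genes or 11 replication-dependent histones. The histone list left out the histone gene H2AC25, which rose. The interferon list left out the chemokine gene CXCL10, which fell. MCL1 was at -0.02 ± 0.06, BCL2L11 at -0.08 ± 0.08 and IDH1 at 0.19 ± 0.11. A second IDH1 probe set rose by 0.29 in a fit of all probe sets (limma adjusted p = 0.0130), and a dim one was at 0.31 and did not pass.

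**Figure D4:**
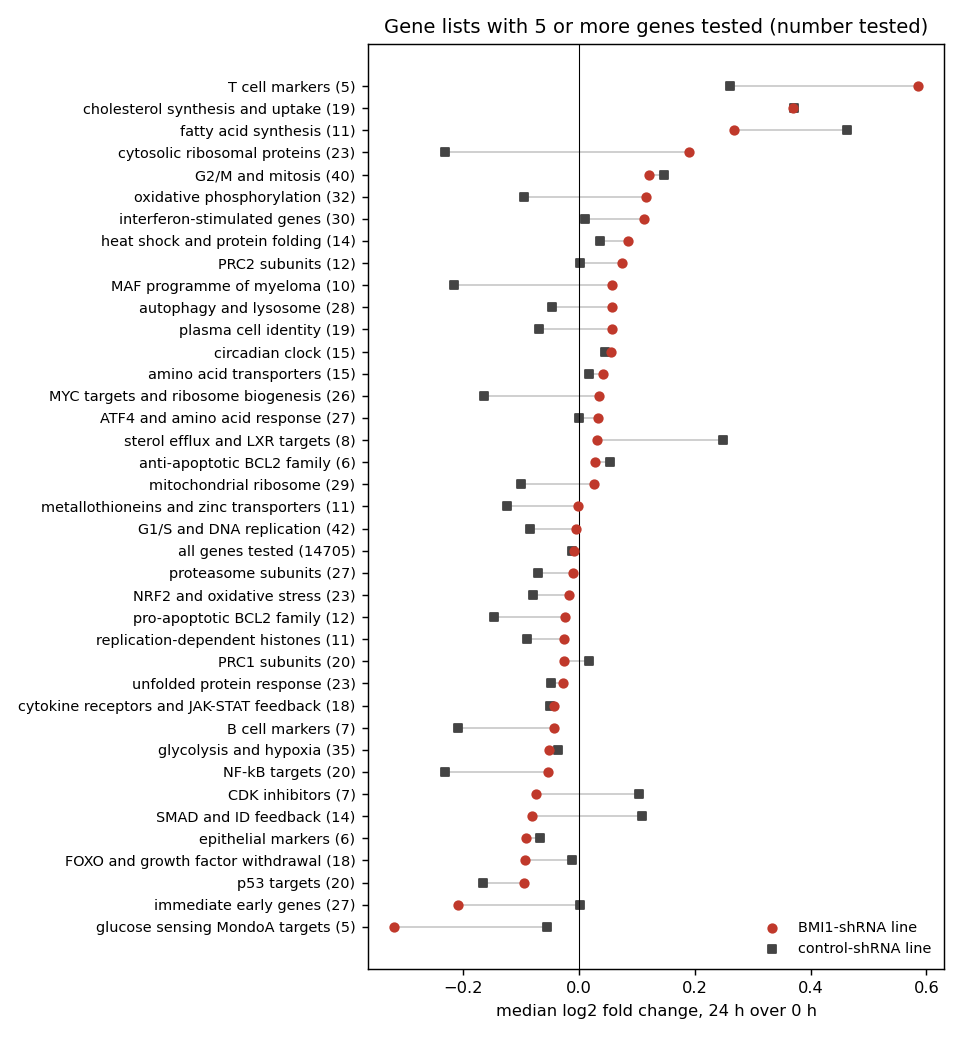
Median log2 fold change of 24 h over 0 h (horizontal axis) for each gene list with at least 5 genes tested, in the BMI1-shRNA line (red circles) and the control-shRNA line (dark squares), with the number tested in brackets and grey lines joining the pair. Cholesterol genes lie at 0.37 in both lines, and cytosolic ribosomal protein genes at 0.19 and -0.23.

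The brightest genes as a group lay slightly off 0, in opposite directions in the lines, as did the hybridisation controls; the part of the one in the other was not tested. The 9 probe sets of the control transcripts added before hybridisation had a median log2 difference between 24 h and 0 h of 0.33 in the BMI1-shRNA line, with 9 of 9 above 0, and of -0.24 in the control-shRNA line, with 0 of 9 above 0. The brightest 2% of genes had medians of 0.14 in the BMI1-shRNA line and -0.16 in the control-shRNA line. The 23 tested cytosolic ribosomal protein genes had medians of 0.19 and -0.23, and none passed in either line. After quantile normalization these medians were -0.01 and 0.00, whereas the cholesterol list stayed at 0.37 and 0.36. The medians of oxidative phosphorylation genes, 0.12 and -0.10, became 0.01 in both lines.

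Among genes outside the lists, the rule of largest change with a signal of at least 100 also named RUSC1-AS1, an antisense transcript at the RUSC1 locus, with 146, 177 and 174 at 24 h, against 83.7, 86.3 and 78.9 at 0 h (0.95 ± 0.21, limma adjusted p = 0.0138). Its call was lost in 4 of 6 leave-outs (limma adjusted p up to 0.0681, without 24 h replicate 2). CARINH, a noncoding RNA, PLEC, which encodes the cytoskeletal linker plectin, the histone gene H2AC25 and PRR14L rose by 0.62, 0.58, 0.56 and 0.53. Each of these 4 calls was lost in 3 or more leave-outs, with limma adjusted p of up to 0.0567, 0.132, 0.189 and 0.134.

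PHLDA2, an imprinted gene that restrains placental growth, read 940.3, 948 and 1103 at 24 h, against 1721, 1624 and 1722 at 0 h and fell (-0.76 ± 0.16, limma adjusted p = 0.00634), a call that held without each array. It was lost with the mean of its 2 probe sets (log2 fold change -0.44, limma adjusted p = 0.306), the dimmer of which gave -0.11. YARS2, the mitochondrial tyrosyl-tRNA synthetase, read 217, 190.4 and 174 at 24 h, against 600.5, 264 and 326 at 0 h, so that a single 0 h array was far above the others. It gave -0.93 ± 0.25, limma adjusted p = 0.0463, but -0.59 and a limma adjusted p of 0.318 without 0 h replicate 1. ZDHHC20, a palmitoyltransferase, CAMKK2, a kinase that activates AMPK, PNPLA2, the lipase ATGL, SPART and CPEB4, a regulator of mRNA polyadenylation, fell by 0.75, 0.74, 0.73, 0.73 and 0.73. Their calls were lost in 3 to 5 leave-outs, and for CAMKK2 3 further probe sets lay above 0 (0.13 to 0.92) and did not pass.

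Of the 11 genes that changed at least 2-fold, 9 averaged under 100 in both groups. The highest of these, named after its values were seen, was C3, complement component 3, at 56.6 ± 7.50 at 24 h and 11.5 ± 8.01 at 0 h (SD, n = 3 each; limma adjusted p = 0.00204). FAM3D, the lowest and also named in this way, was 4.53 ± 1.16 at 24 h and 29.2 ± 6.10 at 0 h (limma adjusted p = 0.0299). The dimmer mean of each lay below the median signal of all probe sets on every array of its group (17.5 to 19.5 at 24 h and 16 to 18.7 at 0 h). No detection calls were used here, so these levels are not known to be above background and no fold is given.

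The same hours in the undosed control-shRNA line gave 208 genes that passed a limma adjusted p of 0.05 (1.41%), with 98 higher (0.666%) and 110 lower (0.748%). The count was 135, 143 and 108 without 24 h replicates 1, 2 and 3 of that line, and 112, 134 and 116 without its 0 h replicates. No array is shared between the lines. A total of 44 genes passed in both, 43 in the same direction (24 rose and 19 fell), which is 16.9% of the genes that passed in the BMI1-shRNA line and 20.7% of those in the control-shRNA line. Of the 254 genes of the BMI1-shRNA line, 193 (76.0%) had the same sign in the control line, against 51.6% of all genes tested. Across all 14705 genes, which are not independent replicates, the 2 sets of log2 fold changes had a Pearson r of 0.042, and across the 254 genes an r of 0.497.

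Of the 43 genes, 9 were cholesterol genes, and all 9 were higher in both lines. In the control line, HMGCS1 read 927, 884 and 938 at 24 h, against 322, 422 and 439 at 0 h (1.22 ± 0.12, limma adjusted p = 8.5e-09), MSMO1 3171, 3055 and 3358 at 24 h, against 1688, 1679.8 and 1624 at 0 h (0.94 ± 0.06, limma adjusted p = 6.99e-13) and INSIG1 3581, 3414 and 3380.4 at 24 h, against 1982, 1901 and 1731 at 0 h (0.89 ± 0.07, limma adjusted p = 3.38e-12). The arrays of the 2 times did not overlap for these 3 genes. Their changes were 0.32 to 0.48 log2 units smaller in the BMI1-shRNA line, but none of these differences between the lines passed (limma adjusted p = 0.227, 0.155 and 0.0975). PRDM1 was at -0.48 ± 0.05 in the control line, GADD45A at -0.73 ± 0.07, ADM at -0.55 ± 0.09 and TXNIP at -0.72 ± 0.05, and all 4 fell in both lines. SFN, ASPM and DNAJB1 rose in both, with control values of 0.61, 0.40 and 0.48. Named after their values were seen, the chemokine gene CXCL12 fell by 0.26 in the BMI1-shRNA line and 0.49 in the control line, and the drug transporter gene ABCG2 rose by 0.39 and 0.37.

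**Figure D5:**
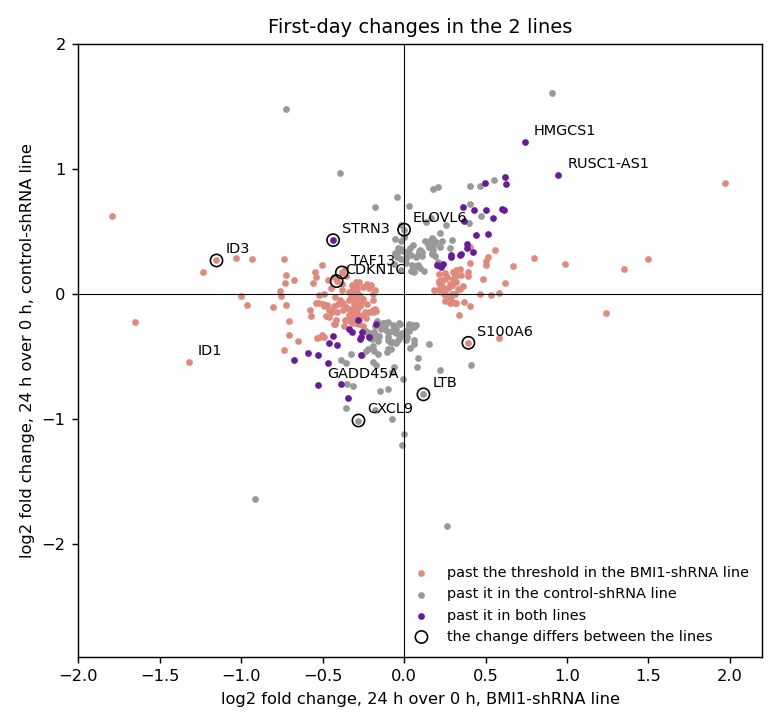
Log2 fold change of 24 h over 0 h in the BMI1-shRNA line (horizontal axis) against the control-shRNA line (vertical axis) for genes that passed in at least 1 line, with genes past the threshold in both lines in purple and the 8 genes whose change differed between the lines ringed. HMGCS1 and RUSC1-AS1 lie high in both lines, and ID3 lies at -1.15 and 0.27.

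A test of the difference between the lines' first-day changes (BMI1-shRNA line minus control-shRNA line) passed for 8 genes (0.0544%), 3 with a higher change in the BMI1-shRNA line (0.0204%) and 5 with a lower one (0.034%), and 1840 genes had an unadjusted p under 0.05. The count was 4, 1 and 4 without 24 h replicates 1, 2 and 3 of the BMI1-shRNA line and 1, 12 and 2 without its 0 h replicates. It was 6, 1 and 1 without 24 h replicates 1, 2 and 3 of the control-shRNA line and 6, 5 and 1 without its 0 h replicates. ID3 differed most. In the control line it read 149, 141 and 154 at 24 h, against 129.9, 131 and 106 at 0 h, without overlap, but its log2 fold change of 0.27 did not pass, and the difference between the lines was -1.42 ± 0.21, limma adjusted p = 0.000782. ID1 read 84.1, 103 and 84 at 24 h, against 122, 130.3 and 149.8 at 0 h in the control line (-0.54 ± 0.16, limma adjusted p = 0.0714), and its difference of -0.78 ± 0.22 did not pass (limma adjusted p = 0.163).

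STRN3, a subunit of the STRIPAK phosphatase complex, fell in the BMI1-shRNA line (113, 108 and 122 at 24 h, against 178, 144 and 149.9 at 0 h) and rose in the control line (232, 234 and 243 at 24 h, against 165, 192 and 166 at 0 h). The difference was -0.87 ± 0.16, limma adjusted p = 0.0228, and it was the only gene that passed in both lines in opposite directions. Its call in the BMI1-shRNA line was lost in 5 of 6 leave-outs (limma adjusted p up to 0.199, without 0 h replicate 1) and in 3 alternative settings. CDKN1C had 316, 331 and 309 at 24 h, against 290.2, 290.2 and 308 at 0 h in the control line and a difference of -0.52 ± 0.10, limma adjusted p = 0.0294. TAF13, a subunit of TFIID, read 376, 348 and 366 at 24 h, against 509, 437 and 480.2 at 0 h in the BMI1-shRNA line and 413, 394 and 385 at 24 h, against 353, 345 and 356 at 0 h in the control line (difference -0.56 ± 0.11, limma adjusted p = 0.0294). ELOVL6 rose in the control line, with 692, 666 and 684 at 24 h, against 498, 458 and 469 at 0 h there (difference -0.52 ± 0.10, limma adjusted p = 0.0302).

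S100A6, a calcium-binding protein, read 2614, 2688 and 2706 at 24 h, against 2118, 2041 and 1932 at 0 h in the BMI1-shRNA line and 1013, 888 and 865 at 24 h, against 1320.3, 1101 and 1206 at 0 h in the control line. Its difference was 0.78 ± 0.15, limma adjusted p = 0.0294. CXCL9, an interferon-induced chemokine, read 645, 628 and 629 at 24 h, against 770.5, 788 and 755 at 0 h in the BMI1-shRNA line and missed the threshold there, and it fell by 1.01 on the log2 scale in the control line (125, 103 and 90.5 at 24 h, against 215, 225 and 214 at 0 h), a difference of 0.73 ± 0.14, limma adjusted p = 0.0294. LTB, a lymphotoxin subunit, was dim in the BMI1-shRNA line (52, 64.3 and 58.9 at 24 h, against 48.4, 57.2 and 54.3 at 0 h) and fell in the control line (110.4, 88.9 and 91.8 at 24 h, against 169.5, 172 and 176 at 0 h), with a difference of 0.92 ± 0.19, limma adjusted p = 0.0302. The 0 h arrays of the lines differed in the starting level of several of these genes, as the plots of signal by time show for ID1, ID3 and CXCL9.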

How the data were processed

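RNA of each sample was hybridised to its own Affymetrix U133 Plus 2 array. The deposited values are intensities: linear MAS5 signals per probe set, made by the authors with MAS5, per the submitters' processing notes, whose version is not given in the sources used here. The number of arrays, 3 a group, limits the precision.

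Values were transformed as log2(signal + 5.4), the added 5.4 being the lower quartile of the table, so fold changes of dim genes are understated. A probe set was kept where at least 3 of 42 arrays reached their own median (35232 probe sets). The brightest kept probe set with a single symbol, from the platform annotation, stood for each of 14705 genes. The test was limma 3.58.1 (R 4.3.3) with a mean for each of 14 groups (28 residual degrees of freedom, eBayes with an intensity trend), two-sided, with Benjamini-Hochberg adjustment over all genes and a threshold of 0.05. All SEs are those of this model. The labels give no scan dates.

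On simulated data with 14705 genes, this comparison recovered 47% of 100 genes changed by 0.5 on the log2 scale and 74% of 100 changed by 1, with 3 false calls. The comparison, the 41 gene lists (815 symbols, 708 tested) and the rule for named genes were chosen with earlier results of these data known. The rule took the 10 highest and 10 lowest called genes with non-overlapping arrays and a signal of at least 100, up to 4 called members of each list, a fixed set (BMI1, MYC, IRF4, MCL1, BCL2L11, CDKN2A, CDKN1A, CCND2, TXNIP, IDH1, SFXN1) and the genes that differed between the lines. The other members of the cholesterol list are given as members of that list. Replicate numbers were not used as pairs: the deviations of same-numbered 24 h and 0 h arrays correlated at 0.06, -0.02 and 0.02. Such deviations within groups of 3 cannot show whether the samples were paired. Array correlations were 0.982 to 0.984 within a time and 0.980 to 0.984 between times. Alternatives changed the pseudocount, the filter, the normalization, the choice of probe set, the trend, the arrays in the fit, a replicate block and single arrays. Promoter sequences are those of RefSeq.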

Additional observations from a re-analysis of the deposited data

Results flagged for a closer look

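The first-day change differed between the lines, by the interaction term of the limma model, for 8 genes (BMI1-shRNA line minus control-shRNA line, log2). The change was higher in the BMI1-shRNA line for LTB (0.92), S100A6 (0.78) and CXCL9 (0.73). It was lower for ELOVL6 (-0.52), CDKN1C (-0.52), TAF13 (-0.56), STRN3 (-0.87) and ID3 (-1.42). Groups of 3 arrays are too small to look for a single array far from the others.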

How the results depend on the processing

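The 254 genes that passed in the BMI1-shRNA line became 176 to 354 under 9 alternatives and 153 with the mean of each gene's probe sets, and 78 to 164 without single arrays. With the replicate number as a block, 236, 231 and 8 genes passed in the BMI1-shRNA line, the control-shRNA line and for the difference between the lines. Whether same-numbered samples were paired is not known. The 208 genes of the control-shRNA line became 326 with all probe sets as features, 550 in a fit of only the groups compared, and 108 to 143 without single arrays. The 8 genes that differed between the lines became 15 with the filter at the 75th percentile, 18 after quantile normalization, 4 with all probe sets, 504 in a fit of only the groups compared, and 1 to 12 without single arrays. The cause of these shifts was not tested. Counts of cholesterol genes that rose, an alternative chosen after seeing the data, were 11 to 14 in the BMI1-shRNA line and 11 to 13 in the control-shRNA line, and 8 to 11 and 10 to 11 without single arrays.

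Of 57 named genes that passed, 30 lost the call without a change of sign in at least 1 alternative setting, and 38 lost it without at least 1 array. The 16 that kept it throughout were HMGCS1, MSMO1, IDI1, LSS, INSIG1, SCD, SFN, ASPM, DNAJB1, ID1, ID3, ADM, CCNE2, GADD45A, GCLM and TXNIP. Of 49 named genes that had not passed, 9 did so in some alternative. Using the mean of the probe sets reversed CAMKK2 (0.13) and PGD (-0.000825), and neither passed there (limma adjusted p = 0.755 and 0.999). CAMKK2 lost its call in no other alternative setting and is not among the 30. With 3 arrays a group, changes under about 0.5 on the log2 scale were often not detectable.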
